A study of Drosophila melanogaster with 6 samples.

Results

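The genes described here are 8 genes of glycogen and trehalose synthesis, breakdown and uptake, out of 17494 genes in the count table. They were chosen by name, with earlier results of these data known. All 8 were found by their symbol: Pgm1, UGP, GlyS, AGBE, GlyP, Treh, Tps1 and Tret1-1. RNA levels were compared between 3 libraries of control (WT) and 3 of M1BP RNAi indirect flight muscle of Drosophila melanogaster, hand-dissected at 64 h APF (hours after the puparium forms). All 6 libraries carried the Mef2-GAL4 driver, which is active in muscle through all of myogenesis, and the M1BP RNAi pupae also carried a UAS-M1BP RNAi transgene, the weaker of the study's lines. Each library came from the pooled muscles of several pupae, the depletion of M1BP was partial, and the labels do not give the sex of the pupae. M1BP (Motif 1 binding protein) is a transcription factor with zinc fingers, found at promoters of many genes that most cells use.

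Glycogen is the branched glucose polymer that muscle stores in its own cytoplasm, and trehalose is the glucose disaccharide that circulates in insect haemolymph, made mainly in the fat body. Flight muscle takes up trehalose and splits it with trehalase, and it frees glucose 1-phosphate from glycogen with glycogen phosphorylase. Both routes feed glucose 6-phosphate, from which glycolysis starts, and the same intermediate can be turned back through glucose 1-phosphate and UDP-glucose into glycogen.

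Each library held between 42215400 and 54890700 counted reads. M1BP itself stood at 8.19, 6.97 and 8.83 CPM (counts per 1000000 of the library size after TMM scaling) in WT replicates 1, 2 and 3 and at 3.00, 3.57 and 2.63 CPM in M1BP RNAi replicates 1, 2 and 3. The groups did not overlap, and the log2 fold change, always given as M1BP RNAi minus WT, was -1.38 ± 0.15 (SE; edgeR adjusted p = 9.54e-04). Genes of the mitochondrial genome took 26.2% to 44.2% of the counts in WT and 15.1% to 23.4% in M1BP RNAi. WT replicates 1 and 2 stood apart from the other 4 libraries in roX1, a male-specific RNA of dosage compensation, with 2 and 6 reads against 884 reads in WT replicate 3 and 1698, 1507 and 3210 reads in M1BP RNAi replicates 1, 2 and 3. The 11 flight muscle markers summed to between 125636 and 142785 CPM in WT and between 90167 and 94940 CPM in M1BP RNAi. The part that either difference has in the results below was not tested. The counts of calls over the 8 genes, over the other listed pathway genes together and over all genes are also given in 2 further settings. These are without WT replicates 1 and 2, and on the scale of the summed muscle markers.

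Of the 8 genes, 7 fell in M1BP RNAi muscle, to between 21.8% and 56.0% of their WT level, and Tps1 did not pass the test. A gene was called changed at an edgeR adjusted p of 0.001 or less, over 8806 genes tested, and a change of 1.5-fold or more, the threshold of the study's methods. All 8 genes were tested, and 7 were called lower, where 2.88% of all genes tested were called lower. The 8 genes were chosen with earlier results of these data known, so this contrast is a description and not a test. No gene of the 8 was called higher, against 2.20% of all genes, and none was higher at an unadjusted edgeR p under 0.05, as 18.9% of all genes were (22.5% were lower at that p), or was called higher by DESeq2. The groups did not overlap in the 7 genes that fell, each of which was lower in all 3 M1BP RNAi libraries than in any WT library, as were 25.0% of all genes tested, while 21.5% of all genes were higher in all 3. The median log2 fold change over the 8 genes was -1.06, and over all genes tested it was -0.02. Together the 8 genes took 0.334%, 0.360% and 0.353% of the reads on nuclear genes in WT replicates 1, 2 and 3 and 0.203%, 0.193% and 0.203% in M1BP RNAi replicates 1, 2 and 3. In bulk muscle, fewer cells of a type and less RNA per cell cannot be told apart.

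**Figure D1:**
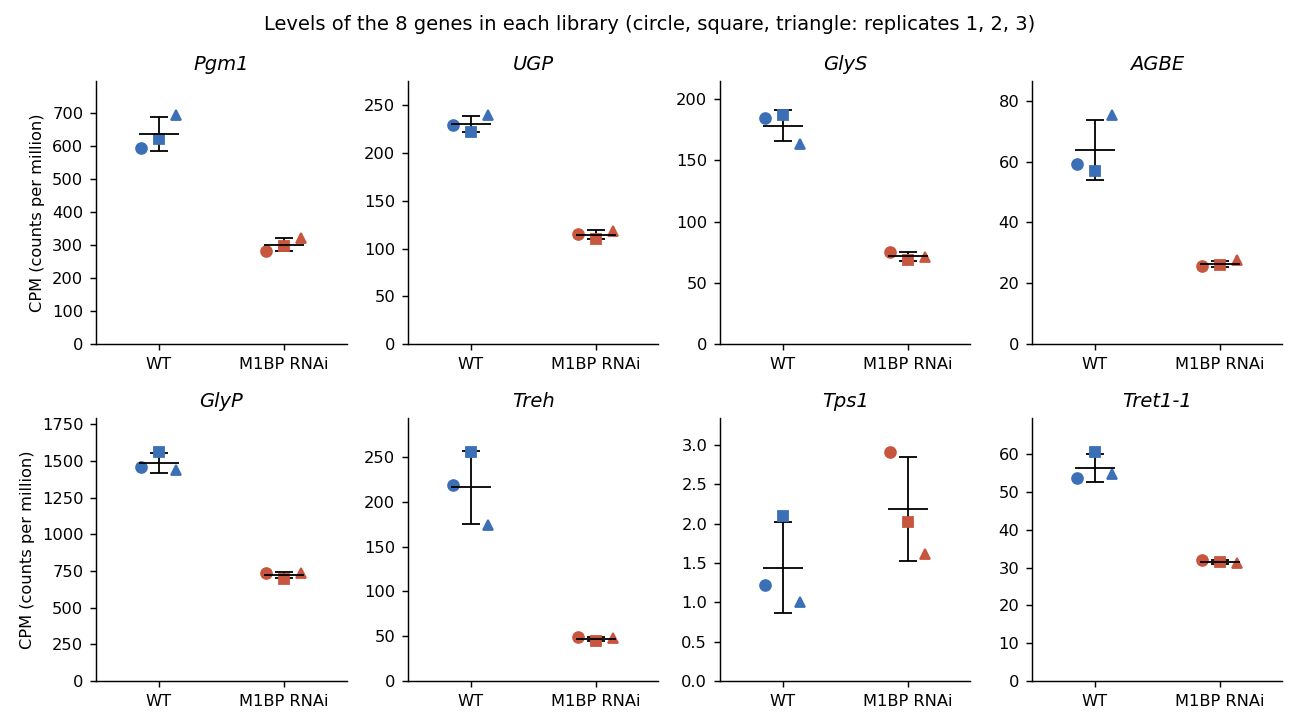
Level of each of the 8 genes in each library, in CPM on a linear axis that starts at 0, with a circle, square or triangle for replicates 1, 2 and 3 of WT and M1BP RNAi and a line at each group mean. In 7 panels the 3 M1BP RNAi libraries sit below every WT library, and in the Tps1 panel the groups overlap, with WT from 1.01 to 2.09 CPM and M1BP RNAi from 1.61 to 2.91 CPM.

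Pgm1 and UGP make the link between glucose 6-phosphate and glycogen. Pgm1 encodes phosphoglucomutase, which converts glucose 1-phosphate and glucose 6-phosphate into each other and so serves both synthesis and breakdown. It lies on chromosome arm 3L at 16126018 to 16128531 (dm6, minus strand), with 1843 bases of exon in 1 annotated transcript. Its level was 592, 622 and 692 CPM in WT replicates 1, 2 and 3 and 283, 297 and 322 CPM in M1BP RNAi replicates 1, 2 and 3. WT replicate 3 was the highest of its group, as was M1BP RNAi replicate 3, and the groups lay far apart. The mean fell from 635 ± 51.4 to 301 ± 19.7 CPM (SD, n = 3 libraries each), which is a log2 fold change of -1.08 ± 0.09 (edgeR adjusted p = 2.93e-04).

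UGP encodes UDP-glucose pyrophosphorylase, which makes UDP-glucose, the glucose donor of both glycogen synthase and trehalose 6-phosphate synthase. It lies on 3L at 9350867 to 9358935 (minus strand), with 3013 bases of exon in 4 transcripts. UGP stood at 230, 222 and 239 CPM in WT replicates 1, 2 and 3 and at 115, 110 and 119 CPM in M1BP RNAi replicates 1, 2 and 3. Both groups were narrow, and every M1BP RNAi library was well below every WT library. The mean was 230 ± 8.82 CPM in WT and 115 ± 4.57 CPM in M1BP RNAi (SD, n = 3), a log2 fold change of -1.01 ± 0.07 (edgeR adjusted p = 1.24e-04). Exons of 2 genes on the opposite strand, PGRP-LF and CG32040, cover 21.4% of its exon bases, which stood at 0.174% and 0.00804% of its level per kilobase in WT.

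GlyS and AGBE build the polymer. GlyS encodes glycogen synthase, which adds glucose from UDP-glucose to the growing chain, and lies on 3R at 15141843 to 15147531 (minus strand), with 3340 bases of exon in 4 transcripts. GlyS stood at 184, 187 and 164 CPM in WT replicates 1, 2 and 3 and at 75.6, 68.6 and 71.2 CPM in M1BP RNAi replicates 1, 2 and 3. WT replicate 3 was the lowest of its group and was still far above the highest M1BP RNAi library, replicate 1. The mean fell from 178 ± 12.6 to 71.8 ± 3.53 CPM (SD, n = 3), which is a log2 fold change of -1.31 ± 0.08 (edgeR adjusted p = 1.03e-04), the smallest adjusted p of the 8 genes.

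AGBE encodes the glycogen branching enzyme, which moves short stretches of the chain to new branch points, and lies on 2R at 13171401 to 13174796 (plus strand), with 2322 bases of exon in 1 transcript. AGBE stood at 59.2, 56.9 and 75.2 CPM in WT replicates 1, 2 and 3 and at 25.9, 25.9 and 27.5 CPM in M1BP RNAi replicates 1, 2 and 3. WT replicate 3 stood above the other WT libraries, while the M1BP RNAi libraries were close to each other. The mean fell from 63.8 ± 9.96 to 26.4 ± 0.966 CPM (SD, n = 3), which is a log2 fold change of -1.27 ± 0.12 (edgeR adjusted p = 5.37e-04). Without WT replicates 1 and 2 its log2 fold change was -1.52 ± 0.09, a larger fall that missed the threshold (edgeR adjusted p = 0.00117).

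GlyP encodes glycogen phosphorylase, which releases glucose 1-phosphate from the ends of the chains, and was the most abundant of the 8 genes. It lies on 2L at 2130813 to 2137296 (plus strand), with 3144 bases of exon in 2 transcripts. GlyP stood at 1462, 1561 and 1436 CPM in WT replicates 1, 2 and 3 and at 736, 695 and 735 CPM in M1BP RNAi replicates 1, 2 and 3. The spread within each group was small beside the gap between the lowest WT library, replicate 3, and the highest M1BP RNAi library, replicate 1. The mean fell from 1486 ± 66.0 to 722 ± 23.4 CPM (SD, n = 3), which is a log2 fold change of -1.04 ± 0.07 (edgeR adjusted p = 1.07e-04).

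The largest fall was in Treh, which encodes trehalase, the enzyme that splits trehalose into glucose. Treh lies on 2R at 21074018 to 21088945 (plus strand), with 4369 bases of exon in 7 transcripts. It stood at 219, 256 and 175 CPM in WT replicates 1, 2 and 3 and at 49.1, 44.9 and 47.8 CPM in M1BP RNAi replicates 1, 2 and 3. The WT libraries were widely spread, with replicate 2 highest and replicate 3 lowest, whereas the M1BP RNAi libraries lay close together, and no M1BP RNAi library came near the WT range. The mean fell from 216 ± 40.7 to 47.2 ± 2.15 CPM (SD, n = 3), 4.58-fold lower, with a log2 fold change of -2.20 ± 0.14 (edgeR adjusted p = 1.24e-04). This was the 67th largest fall among the 8806 genes tested. Rbpn-5, on the opposite strand, overlaps 12.8% of its exon bases and stood at 8.33% of its level per kilobase in WT, with a log2 fold change that did not pass the test (-0.32, edgeR adjusted p = 0.107).

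Tret1-1 encodes a facilitated trehalose transporter of the cell membrane, which carries trehalose in either direction down its gradient. It lies on 2R at 11665768 to 11674782 (plus strand), with 3375 bases of exon in 2 transcripts. Tret1-1 stood at 53.7, 60.6 and 54.7 CPM in WT replicates 1, 2 and 3 and at 32.0, 31.4 and 31.1 CPM in M1BP RNAi replicates 1, 2 and 3. The groups were well apart, and the fall was the smallest of the 7. The mean fell from 56.3 ± 3.72 to 31.5 ± 0.449 CPM (SD, n = 3), which is a log2 fold change of -0.84 ± 0.07 (edgeR adjusted p = 4.44e-04). The related transporter gene Tret1-2, whose start is 1152 bases beyond the end of Tret1-1 on the same strand, was near the bottom of the measured range, at means of 0.519 CPM in WT and 0.765 CPM in M1BP RNAi, and did not pass the test (log2 fold change 0.58 ± 0.31, edgeR adjusted p = 0.213).

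Tps1 was the exception. It encodes trehalose 6-phosphate synthase, the enzyme that makes trehalose, for which the fat body is the main site. Tps1 lies on 2L at 4388327 to 4392778 (plus strand), with 2920 bases of exon in 1 transcript. It had 59, 61 and 40 reads in WT replicates 1, 2 and 3 and 161, 101 and 82 reads in M1BP RNAi replicates 1, 2 and 3, which was 1.22, 2.09 and 1.01 CPM and 2.91, 2.02 and 1.61 CPM. M1BP RNAi replicates 2 and 3 were both below WT replicate 2, so the groups overlapped. The mean was 1.44 ± 0.577 CPM in WT and 2.18 ± 0.663 CPM in M1BP RNAi (SD, n = 3), with a log2 fold change of 0.62 ± 0.34 (edgeR adjusted p = 0.225), and the difference did not pass the test. CG3652, on the opposite strand, shares 9 exon bases with Tps1, which is 0.308% of them, and stood at 506% of its level per kilobase in WT. The 9 fat body markers, measured beside it, summed to 112, 311 and 91.9 CPM in WT replicates 1, 2 and 3 and to 294, 252 and 168 CPM in M1BP RNAi replicates 1, 2 and 3. The groups' sums overlapped, and 5 of the 9 had log2 fold changes above 0 and 4 below. By edgeR 0 of the 9 were called, where 2.88% of all genes were called lower and 2.20% higher. At an unadjusted edgeR p under 0.05, 1 was higher and 0 lower, where 18.9% and 22.5% of all genes were. The higher one was Lsp2, at means of 39.8 CPM in WT and 83.8 CPM in M1BP RNAi (log2 fold change 1.08 ± 0.38, edgeR adjusted p = 0.0763). WT replicate 2, the WT library with the most Tps1, also had the highest sum of fat body markers, and M1BP RNAi replicate 1 was the highest of its group in both. The part of these markers in the level of Tps1 was not tested.

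The order of the levels per kilobase of exon (RPKM, CPM divided by summed exon length) was nearly the same in both groups. In WT the means ran from GlyP at 473 RPKM and Pgm1 at 345 RPKM through UGP at 76.5, GlyS at 53.3, Treh at 49.5, AGBE at 27.5 and Tret1-1 at 16.7 RPKM to Tps1 at 0.493 RPKM. GlyS and Treh were the only neighbours in that order whose WT values overlapped, GlyS being higher in 2 of 3 libraries. In M1BP RNAi the means were 230 RPKM for GlyP, 163 for Pgm1, 38.0 for UGP, 21.5 for GlyS, 11.4 for AGBE, 10.8 for Treh and 9.34 RPKM for Tret1-1. Treh had moved below AGBE, from which it could not be separated (AGBE was higher in 2 of 3 libraries). GlyP and Pgm1 together held most of the summed level of the 8 genes in both groups. The share of GlyP was 45.4% ± 1.66 in WT and 47.4% ± 1.09 in M1BP RNAi, and that of Pgm1 was 33.1% ± 2.33 and 33.7% ± 1.54 (SD, n = 3). The share of Treh was 4.76% ± 0.865 in WT and 2.23% ± 0.0877 in M1BP RNAi, and every M1BP RNAi library was below every WT library.

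Ratios between 2 genes within a library do not depend on how libraries are scaled to each other. They are given here as values with no test. The ratio of glycogen phosphorylase to glycogen synthase (GlyP to GlyS, in RPKM) was 8.43, 8.89 and 9.32 in WT replicates 1, 2 and 3 and 10.3, 10.8 and 11.0 in M1BP RNAi replicates 1, 2 and 3. Synthase had thus fallen a little further than phosphorylase, by 0.27 on the log2 scale, and the groups did not overlap. The ratio of GlyP to Treh was 9.28, 8.48 and 11.4 in WT replicates 1, 2 and 3 and 20.8, 21.5 and 21.4 in M1BP RNAi replicates 1, 2 and 3. The balance of the transcripts of the 2 breakdown enzymes was shifted toward phosphorylase by 1.14 on the log2 scale, with no overlap. The ratio of Treh to Tps1 was 120, 81.6 and 116 in WT replicates 1, 2 and 3 and 11.3, 14.8 and 19.8 in M1BP RNAi replicates 1, 2 and 3, a difference in log2 ratio of -2.81, which rests on the few reads of Tps1. The ratio of Pgm1 to UGP ran from 4.21 to 4.73 in WT and from 4.02 to 4.42 in M1BP RNAi, so for these neighbours in the pathway the groups overlapped, at a difference in log2 ratio of -0.07.

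**Figure D2:**
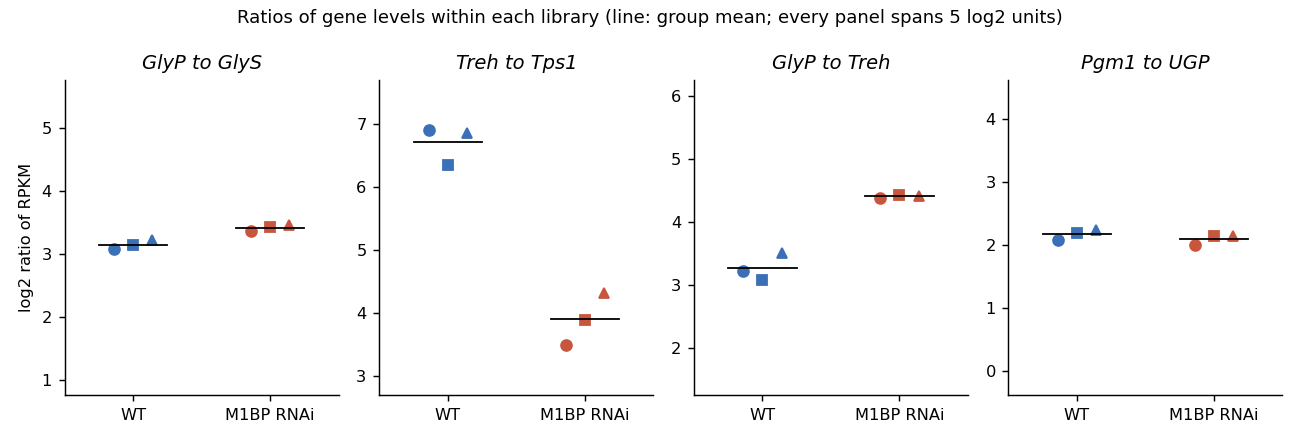
Log2 ratio of RPKM between 2 genes within each library, 1 panel a ratio, with points for the 3 WT and 3 M1BP RNAi libraries and a line at each group mean. All panels span the same number of log2 units, so that the distance of -2.81 for Treh to Tps1 and of 1.14 for GlyP to Treh can be set beside 0.27 for GlyP to GlyS and -0.07 for Pgm1 to UGP.

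Around these 8 genes, 44 others of the same pathways were listed, of which 35 passed the filter on low counts. Of the 35, 6 fell and 0 rose (edgeR), where 2.88% of all genes were called lower and 2.20% higher. The median log2 fold change was -0.08, close to that of all genes. At an unadjusted edgeR p under 0.05, 14 of the 35 were lower and 5 were higher, where 22.5% of all genes were lower and 18.9% higher. DESeq2 called 9 of the 35 lower and 2 higher, CG5171 and Galk, where it called 477 lower and 572 higher of 9466 genes tested. Of the 6, 5 are in the glycogen lists and 1, Pgi, is in the list of the glucose 6-phosphate junction. Of 5 further genes of glycogen turnover, 3 were tested and 2 fell. Gyg encodes glycogenin, the protein primer on which a glycogen particle starts, and stood at 532, 501 and 541 CPM in WT replicates 1, 2 and 3 and 247, 230 and 238 CPM in M1BP RNAi replicates 1, 2 and 3. No library of one group came near the other, and the log2 fold change was -1.14 ± 0.07 (edgeR adjusted p = 8.23e-05). CG9485 encodes the debranching enzyme, which removes branch points during breakdown, and stood at 585, 539 and 571 CPM in WT replicates 1, 2 and 3 and 294, 289 and 293 CPM in M1BP RNAi replicates 1, 2 and 3. Its groups were as clearly apart, with a log2 fold change of -0.95 ± 0.06 (edgeR adjusted p = 1.19e-04). Pgm2a, a further phosphoglucomutase family gene, had means of 44.7 CPM in WT and 43.6 CPM in M1BP RNAi.

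Of the 13 regulators of glycogen turnover, all tested, 3 fell and 0 rose (edgeR), with a median log2 fold change of -0.50. Of all genes, 2.88% were called lower and 2.20% higher. At an unadjusted edgeR p under 0.05, 9 of the 13 were lower and 1 higher, where 22.5% and 18.9% of all genes were. Without overlap, 11 were lower and 1 higher, where 25.0% and 21.5% of all genes were. DESeq2 called 5 of the 13 lower and 0 higher, where it called 477 lower and 572 higher of 9466 genes tested. Phosphorylase kinase switches phosphorylase on, and its catalytic subunit PhKgamma fell from 236 ± 17.7 to 141 ± 2.52 CPM (SD, n = 3; log2 fold change -0.74 ± 0.07, edgeR adjusted p = 7.00e-04). CG8475, a regulatory subunit of the same kinase, fell from 385 ± 14.5 to 212 ± 4.48 CPM (log2 fold change -0.86 ± 0.06, edgeR adjusted p = 1.73e-04). The other regulatory subunit, CG7766, had means of 456 and 274 CPM with no overlap between groups, at a log2 fold change of -0.74 ± 0.09, and missed the threshold (edgeR adjusted p = 0.00123). Gbs-76A, a subunit that targets protein phosphatase 1 to glycogen, where the phosphatase acts against the kinase, fell from 137 ± 9.81 to 83.4 ± 3.52 CPM (log2 fold change -0.72 ± 0.08, edgeR adjusted p = 9.67e-04). This lay just inside the threshold, and Gbs-76A missed it with RLE scaling, with no filter on low counts and without the genes of the mitochondrial genome (edgeR adjusted p from 0.00123 to 0.00169). Gbs-76A also missed it with each library left out in turn (edgeR adjusted p up to 0.0113) and with roX1 as a covariate (0.00751). PhKgamma missed it with each library left out except WT replicate 3 (edgeR adjusted p up to 0.00707) and with roX1 as a covariate (0.00678). Pka-R2, a regulatory subunit of the cAMP-dependent kinase, had means of 341 and 193 CPM, did not overlap between groups and missed the threshold (log2 fold change -0.82 ± 0.11, edgeR adjusted p = 0.00220). At the junction where glucose 6-phosphate enters glycolysis, 3 of 4 listed genes were tested, and 1 was called lower, as were 2.88% of all genes. This was Pgi, the glucose 6-phosphate isomerase, which fell from 1311 ± 104 to 666 ± 45.6 CPM (log2 fold change -0.98 ± 0.09, edgeR adjusted p = 4.44e-04). Hex-A, the hexokinase that phosphorylates the glucose made by trehalase, had means of 381 and 232 CPM with no overlap and missed the threshold (log2 fold change -0.71 ± 0.09, edgeR adjusted p = 0.00157).

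The lists of other trehalose genes, sugar transporters and UDP-glucose genes held no call by edgeR in either direction. Of all genes, 2.88% were called lower and 2.20% higher, and 22.5% were lower and 18.9% higher at an unadjusted edgeR p under 0.05. The other 3 trehalose genes tested, of 4 listed, had a median log2 fold change of 0.58, and 1 was higher at an unadjusted p under 0.05. That gene was CG5171, annotated as a trehalose 6-phosphate phosphatase, with 0.559, 0.653 and 0.554 CPM in WT replicates 1, 2 and 3 and 2.06, 1.88 and 1.65 CPM in M1BP RNAi replicates 1, 2 and 3. Its groups were far apart at a low level, and its log2 fold change of 1.67 ± 0.19 missed the threshold (edgeR adjusted p = 0.00119). CG5177, which lies beside CG5171 and has the same annotation, had 923, 643 and 593 reads in WT replicates 1, 2 and 3 and 2273, 498 and 740 reads in M1BP RNAi replicates 1, 2 and 3, so that M1BP RNAi replicate 1 alone was high. The 6 sugar transporter genes tested, of 11 listed, had a median of 0.28, with 1 lower at an unadjusted p under 0.05. CG4797 was the sole one of them to pass 1.5-fold without overlap, at means of 0.310 and 0.594 CPM (log2 fold change 0.91 ± 0.46, edgeR adjusted p = 0.190). The 7 genes that make or use UDP-glucose and related sugars, all tested, also had a median of 0.28, with 3 higher at an unadjusted p under 0.05. Among them Galk, the galactokinase, stood at 2.19, 2.23 and 4.18 CPM in WT replicates 1, 2 and 3 and at 6.13, 8.05 and 7.64 CPM in M1BP RNAi replicates 1, 2 and 3. WT replicate 3 was the highest of its group, and the log2 fold change of 1.34 ± 0.27 missed the threshold with all 6 libraries (edgeR adjusted p = 0.0109). It passed without that library (edgeR adjusted p = 4.85e-04), a fit whose WT libraries are replicates 1 and 2, those with little roX1. The remaining leave-one-out fits missed it (edgeR adjusted p from 0.0242 to 0.0484). With roX1 as a covariate the log2 fold change of Galk was 0.74 (edgeR adjusted p = 0.0561), and without WT replicates 1 and 2 it was 0.79. CG13314, on the opposite strand, covers 25.1% of the exon bases of Galk and stood at 12.0% of its level per kilobase in WT.

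**Figure D3:**
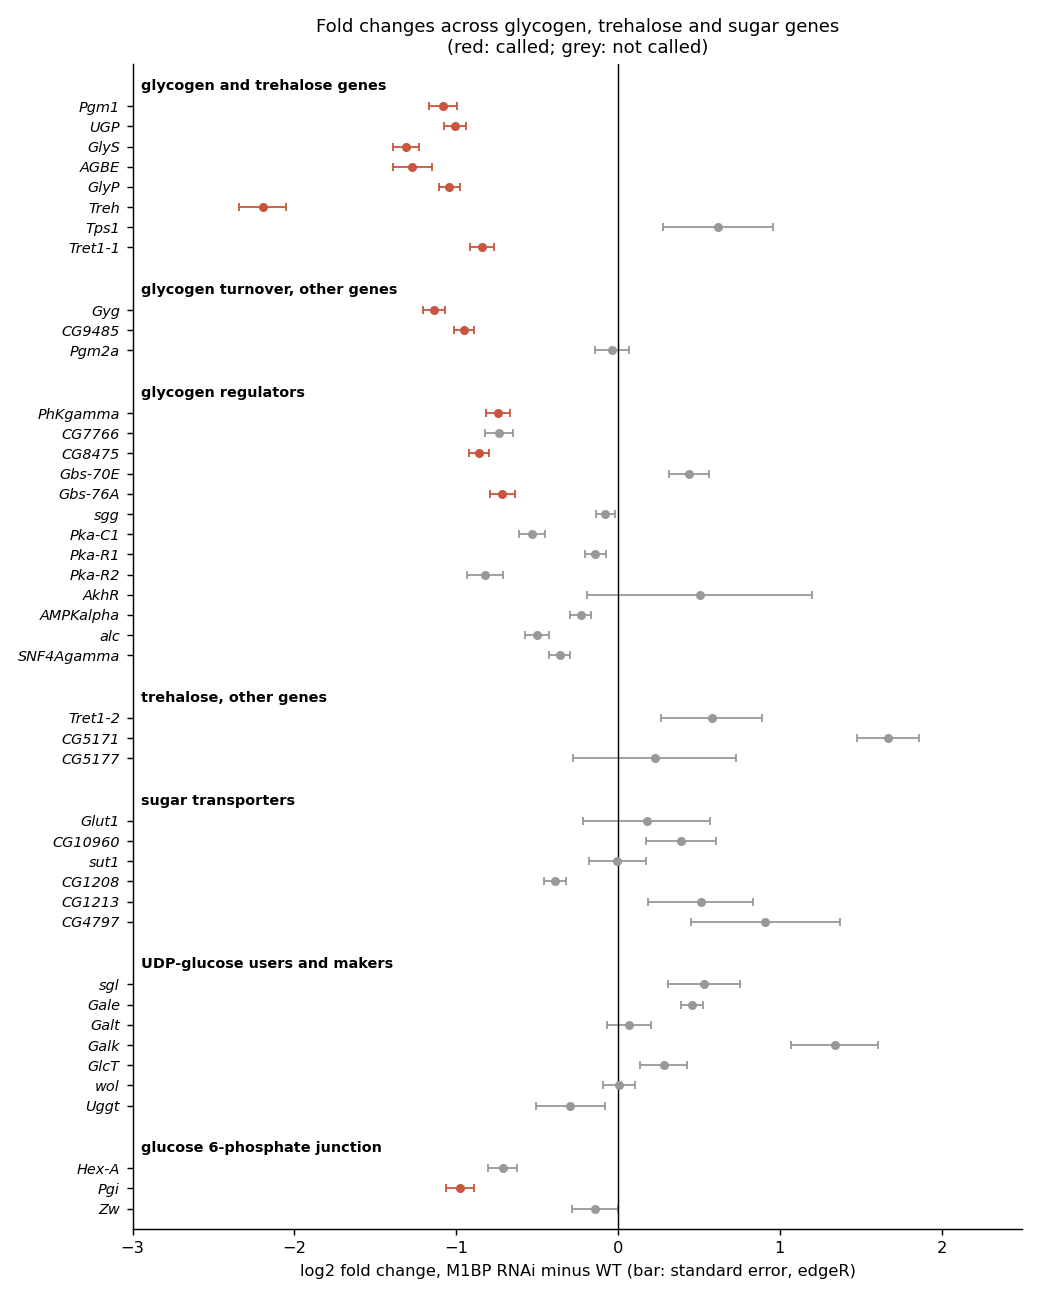
Log2 fold change (M1BP RNAi minus WT, edgeR) of the 8 genes and of the 35 tested genes of the other lists, 1 row a gene, with bars for the standard error, red for called genes and grey for the rest. The red points lie left of 0 in the first 3 groups and at Pgi in the last, and the genes at the right, such as CG5171 at 1.67 and Galk at 1.34, are grey.

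The calls depended on single libraries more than the sizes did. With each library left out in turn, the 7 genes kept log2 fold changes below 0, with Treh between -2.28 and -2.04, GlyS between -1.35 and -1.26, AGBE between -1.33 and -1.09, Pgm1 between -1.13 and -0.96, GlyP between -1.06 and -0.99, UGP between -1.04 and -0.93 and Tret1-1 between -0.85 and -0.77. The number called lower was 0 without WT replicate 1, 4 without WT replicate 2 and 7 without WT replicate 3. Among M1BP RNAi libraries, it was 1 when replicate 1 was left out, 0 when replicate 2 was and 0 when replicate 3 was. In each of these fits the edgeR adjusted p of all 7 genes was 0.00573 or less, and the share of all genes called lower was between 0.490% and 2.55%. Of the other pathway genes, 0, 3 and 6 were called lower without WT replicates 1, 2 and 3, and 1, 0 and 0 when M1BP RNAi replicates 1, 2 and 3 were left out. DESeq2 and limma-voom with all 6 libraries each called the same 7 genes lower.

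**Figure D4:**
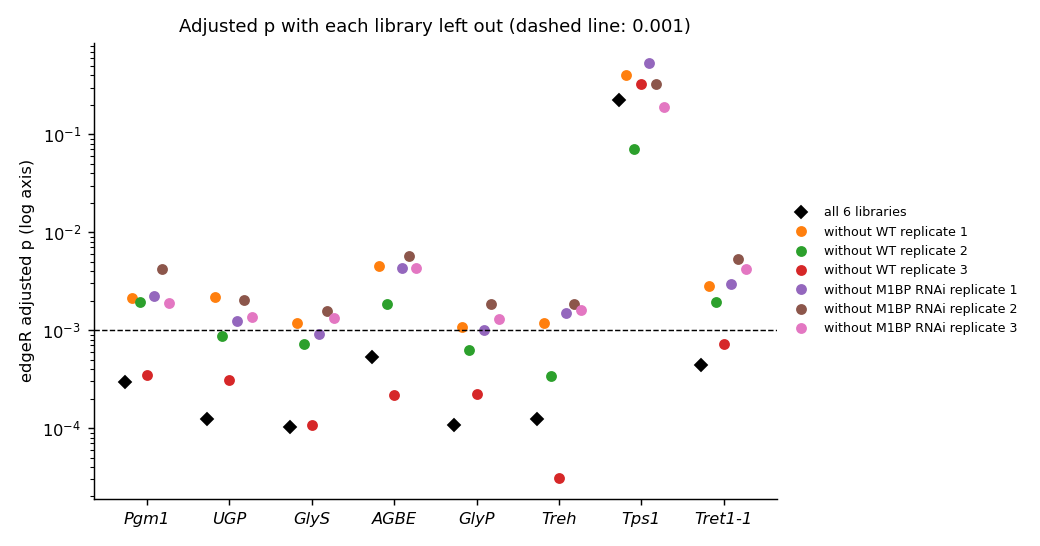
EdgeR adjusted p of each of the 8 genes on a log axis, with all 6 libraries (black diamond) and with each library left out (coloured circles), and a dashed line at 0.001. The circles of the 7 genes that fell lie on both sides of the line, none above 0.00573, and those of Tps1 lie between 0.0700 and 0.530.

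The calls were also counted without the libraries with little roX1, with roX1 as a covariate and on the scale of the muscle markers. Without WT replicates 1 and 2, which leaves WT replicate 3 alone on 1 side and assumes that it varies like the M1BP RNAi libraries, 1 of the 8 genes was called, Treh at a log2 fold change of -1.89 (edgeR adjusted p = 7.97e-04). The other 6 of the 7 genes then had log2 fold changes between -1.52 and -0.81 (edgeR adjusted p from 0.00117 to 0.00533). With the level of roX1 as a covariate, 4 of the 8 were called lower, namely Pgm1, GlyS, AGBE and Treh. Of the 11 flight muscle markers, all below 0 in log2 fold change, 1 was called lower (Act88F, the flight muscle actin, -0.70) and 0 higher. Of all genes, 2.88% were called lower and 2.20% higher. The median log2 fold change of the 11 was -0.43. At an unadjusted edgeR p under 0.05, 8 of the 11 were lower (22.5% of all genes). The groups did not overlap in 8 of them, all lower (25.0% of all genes). The largest WT means were those of Mhc (55364 CPM, log2 fold change -0.49) and Act88F (37636 CPM), while Mef2 stood at -0.004. When the libraries were scaled to the summed muscle markers, 2 of the 8 genes were called lower, GlyS at -0.80 (edgeR adjusted p = 8.08e-04) and Treh at -1.68 (edgeR adjusted p = 3.22e-04). The remaining 5 of the 7 genes stood between -0.76 and -0.33, and this scaling moved the median of all genes to 0.50. Per 1000 marker reads, Treh still ran from 1.35 to 2.04 in WT and from 0.482 to 0.530 in M1BP RNAi, and GlyS from 1.26 to 1.49 and from 0.737 to 0.796. With that scaling, and also without WT replicates 1 and 2, 0 of the 35 other pathway genes were called lower. Per 1000 marker reads each of the 7 genes was lower in every M1BP RNAi library than in any WT library. Tps1 was higher in every one by a narrow margin on few reads, at 0.00776 to 0.0167 in WT and 0.0179 to 0.0306 in M1BP RNAi. With the muscle-marker scaling its log2 fold change was 1.11 ± 0.35 (edgeR adjusted p = 0.0324), which missed the threshold. With TMM scaling it was 0.62 ± 0.34 (edgeR adjusted p = 0.225). In CPM its groups overlapped. The share of all genes without overlap on this scale was not counted.

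Markers of other cell types in the dissected muscle were low beside the muscle markers. None was called by edgeR, where 2.88% of all genes were called lower and 2.20% higher. Haemocyte markers summed to between 23.0 and 28.5 CPM in WT and between 35.8 and 48.9 CPM in M1BP RNAi, with no overlap, 2 of 6 tested being higher at an unadjusted p under 0.05 and He at 1 to 4 reads a library. Neuron markers summed to 15.1 to 26.0 and 14.6 to 19.3 CPM, glia markers to 50.3 to 56.6 and 55.1 to 65.3 CPM (wrapper had 0 to 5 reads a library), trachea markers to 302 to 524 and 406 to 447 CPM, and tendon markers to 8.96 to 12.4 and 9.49 to 16.3 CPM in WT and M1BP RNAi. The myoblast markers summed to 24.5 to 30.1 and 29.2 to 37.6 CPM, nearly all of it from zfh1, the 1 marker tested, which was higher at an unadjusted p under 0.05, while twi had 0 to 7 reads and Him 0 to 4 reads a library. Their part in the levels of the 8 genes was not tested.

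By their pattern over the 6 libraries, the genes most like GlyS, among 2956 with an average log2 CPM of 4 or more, were sgll, Nop17l and Pfk, each with a Pearson r of 0.998 in log2 CPM. Those most like GlyP were Lamp1 (0.999), Cnot4 (0.998) and ND-B14 (0.998). These values describe 6 libraries whose main difference is the group, and 188 genes for GlyS and 201 for GlyP had an r above 0.98.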

How the data were processed

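Polyadenylated RNA of dissected flight muscle was sequenced in 3 WT and 3 M1BP RNAi libraries. The authors deposited raw counts of reads per gene (featureCounts of Subread 2.0.3, dm6, per the labels and submitters' processing notes) with gene coordinates and summed exon length. How reads were aligned, which annotation was counted and whether strand was used are not given in the sources used here, so reads of genes that overlap on opposite strands may not be separated. A second deposited table holds the fold changes and p-values of the authors' own comparison. Only its symbols were used, to name the genes, and the symbol column is text with no measurement. The count table has 1 line that names no gene, with 0 counts. Gene structure was taken from Ensembl release 115, in which 17358 of the 17494 genes matched by identifier and 17230 had the same start and end.

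Genes were tested with edgeR 4.0.16 (R 4.3.3), by the quasi-likelihood test after TMM scaling and filterByExpr, with Benjamini-Hochberg adjustment over 8806 genes. Standard errors are log2 fold changes over the root of their F statistics. Library sizes after scaling put 3 counts at 0.0542 to 0.103 CPM, counting error only. DESeq2 1.42.0, limma-voom (limma 3.58.1), other scalings and filters, and fits without each library were the alternatives. In simulated data with 200 changed genes among 8806 for this comparison, 68% of genes changed 4-fold and 4% of those changed 2-fold were recovered, with 0 false calls. Replicates differed by 42.6 to 413 times the sampling variance, so no library was counted as a repeat of another. Per the methods of the study, the replicates were independent biological ones, with 1 RNA preparation of pooled pupae for each library, and p-values measure the spread between these pools. Replicate numbers were not taken to pair the libraries.

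Named are M1BP, the 8 genes, each called gene of the other lists, each of their genes with a 1.5-fold change and no overlap, and the 3 genes nearest in pattern to the 2 of the 8 with the smallest adjusted p. CG5177, Pgm2a and Tret1-2 were added after their values were seen. The 8 genes and the lists were chosen with earlier results of these data known.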

Additional observations from a re-analysis of the deposited data

How the results depend on the processing

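All 7 falls kept their direction under each alternative run, and none of the 4 ratios changed direction. DESeq2, limma-voom, RLE scaling, removal of the mitochondrial genome, no filter and a minimum of 10 counts left 7 of the 8 genes lower. Both other thresholds are looser and were applied to the same fit, so the 7 calls could not be lost there, and none was added. With roX1 as a covariate 4 were lower, on the muscle-marker scale 2, and without WT replicates 1 and 2 there was 1 (the latter 2 settings were chosen after seeing the data). Leave-one-out fits gave 0 to 7. Treh was called in all of the 10 other alternatives, but in 2 of the 6 leave-one-out fits. The cause of these losses was not tested. Each leave-one-out fit also has fewer libraries, and the part of this was not tested either. Other pathway genes called lower were 6, against 14 at an adjusted p of 0.05, 1 with roX1, 0 on the muscle-marker scale, 0 without WT replicates 1 and 2, and 0 to 6 in leave-one-out fits. Those called higher were 0, against 2 with DESeq2, 1 with a minimum of 10 counts, 4 at an adjusted p of 0.05, 2 on the muscle-marker scale, and 0 to 1 in leave-one-out fits. Over all genes 194 were higher and 254 lower. The counts were 572 and 477 with DESeq2, 1212 and 1489 at an adjusted p of 0.05, 34 and 90 with roX1, 722 and 88 on the muscle-marker scale and 17 and 37 without WT replicates 1 and 2. They ran from 26 to 246 higher and from 44 to 231 lower in leave-one-out fits.

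With replicate number as a block, 6 of the 8 genes were lower (Tret1-1 lost its call), as were 3 other pathway genes, and 75 genes were higher and 116 lower overall. Same-numbered libraries had correlations of deviations of 0.31, -0.04 and 0.27, so the numbers were not accepted as pairs. The planned search for motifs in promoters was not run, as no genome of the files' build was used here.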
